A study of Mus musculus with 2 samples.

Results

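Subcluster 7 is a group of CD8 T cells that were sorted for surface JAML from mouse tumours and separated by the authors' clustering at resolution 0.8. It held 352 of the 5976 cells in the annotation, or 5.89% (95% exact binomial interval 5.31 to 6.52, counting error only), and 18.1% of the 1945 cells of the broad cluster that the annotation names by Cd3g. Its members were taken from the authors' cluster column alone, and no cell was added or removed. The cells were CD45+ JAML+ cells from B16F10 tumours, grown from the mouse melanoma line of that name, and all went into 1 droplet library. Hashtag antibodies marked 3 mice, and the hashtag names of all 3 read as an isotype control, so there was 1 condition and no treated group. The cells therefore carry no comparison between treatments. Every comparison is between cells of the same mouse, and each cell had been sorted for the JAML protein. One label of the library calls the cells T cells and another calls them TREG, while the annotation gives the species as human against mouse in the labels. Mice 1, 2 and 3 gave 48, 58 and 245 cells of subcluster 7, and 1 cell had no hashtag. That was 1.96%, 4.90% and 10.5% of the cells of each mouse, so mouse 3 held most members. All levels below are UMIs of a gene over the UMIs of the class, as CPM, after the cells of a class were summed within a mouse, with n = 3 mice. The sums rested on 514513, 560863 and 2151935 UMIs.

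CD8 T cells recognise peptides on class I MHC through a T cell receptor coupled to the CD3 chains, with CD8 as co-receptor, and kill with granzymes and perforin. Naive and memory cells that circulate through lymph nodes use the chemokine receptor CCR7, and the transcription factors TCF1 (Tcf7), LEF1 and SATB1 mark them. Effector and tissue-homing cells lose these and carry granzymes, CCL5, CXCR6 and CXCR3. JAML is an adhesion and costimulatory receptor whose ligand is CXADR.

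The markers given with the label were present in every mouse. Cd8a stood at 544, 701 and 564 CPM in subcluster 7, against 243, 237 and 198 CPM in all other cells of mice 1, 2 and 3. Cd8b1, the other chain of the co-receptor, stood at 812, 991 and 926 CPM in subcluster 7, against 303, 259 and 291 CPM in all other cells. Cd3g, a chain of the receptor complex, stood at 1364, 1633 and 1643 CPM in subcluster 7 and 582, 479 and 534 CPM in all other cells. The groups did not overlap for any of the 3 genes, which came with the label, so this carries no test. Of all genes with a mean of at least 10 CPM, 30.2% were higher than in all other cells in 3 of 3 mice. At the level of cells, 330 of 351 (94.0%, exact interval 91.0 to 96.3) had a CD8 and a CD3 UMI and no Cd4 UMI. The share was 72.9% in mouse 1, 96.6% in mouse 2 and 97.6% in mouse 3. Of the 19 cells without a CD8 UMI, 7 had a Cd4 UMI and 6 had γδ T cell transcripts, and 12 of the 19 came from mouse 1. Cd4 itself was at 21.4, 1.78 and 1.39 CPM, so the small mouse 1 class was the least uniform.

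Subcluster 7 was compared with subclusters 1 and 10, the other CD8 groups of the same broad cluster. Subcluster 1 held 785 cells (64, 124 and 597 per mouse) and subcluster 10 held 129 (41, 22 and 66). In the authors' clusterings at lower resolution, subcluster 7 came apart from subcluster 1 late. At resolution 0.4, 349 of its cells shared a cluster of 1170 with 775 cells of subcluster 1, while at 0.6 its 346 cells stood in a cluster of 391 with 43 cells of subcluster 15 and 0 of subcluster 1.

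The plainest difference between subclusters 7 and 1 was the mitochondrial share of a cell's UMIs. The median was 3.5%, 3.08% and 2.94% in subcluster 7 and 2.02%, 2.07% and 1.91% in subcluster 1 of mice 1, 2 and 3. No cell of subcluster 1, of 64, 124 and 597, exceeded the median of subcluster 7 in its mouse. A single cut per mouse, at 2.67%, 2.64% and 2.57%, placed 111 of 112, 176 of 182 and 807 of 842 cells on the side of their own subcluster. Subcluster 10 lay between, with medians of 2.74%, 2.63% and 2.65%. The median UMIs of a cell were 10934, 9159 and 8520 in subcluster 7, against 8116, 8509 and 8592 in subcluster 1. Since the authors' clusters were made from the genes of these cells, these differences describe the classes and carry no test. Whether the mitochondrial share has a part in the other differences between subclusters 7 and 1 was not tested.

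**Figure D1:**
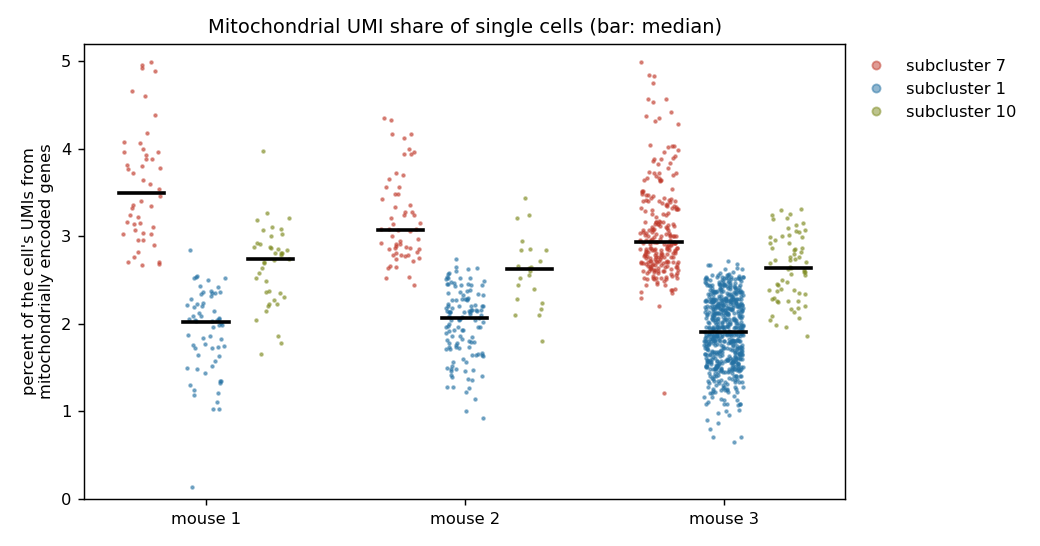
Percent of each cell's UMIs on mitochondrially encoded genes, by mouse, for subclusters 7, 1 and 10; each point is a cell and the bars are medians. Subcluster 7 has medians of 3.5%, 3.08% and 2.94% and subcluster 1 has medians near 2%, with little overlap between the classes.

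Across the 13 mitochondrially encoded genes, all 13 were higher in subcluster 7 than in subcluster 1 in 3 of 3 mice, with a median log2 difference of 0.84. They were also higher than in all other cells in 3 of 3 mice, where 30.2% of all genes were. Against subcluster 1 the median over all genes with a mean of at least 10 CPM was −0.04, and 12.4% were higher in 3 of 3 mice. The differences spanned core subunits of several respiratory complexes. Cytochrome c oxidase subunit mt-Co1 stood at 7448, 7012 and 7471 CPM in subcluster 7 and 4455, 4784 and 4965 CPM in subcluster 1 (log2 difference 0.63 ± 0.10, SD over mice). The complex I subunit mt-Nd3 stood at 330.4, 328 and 218 CPM in subcluster 7, against 133, 152 and 128 CPM in subcluster 1 (1.06 ± 0.28). The 14 nuclear genes of oxidative phosphorylation had a median difference of −0.04, the same as over all genes.

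Beyond those genes, subclusters 7 and 1 were close. A gene was counted as different where its log2 difference of CPM plus 1 was at least 1 in the same direction in every mouse and the higher class averaged at least 30 CPM. By this rule 4 of 4204 genes differed (0.0951%), and 0 of the 13 mitochondrially encoded genes did. The 3 that were higher in subcluster 7 (0.0714%) included Dapl1 and Satb1, and the 1 that was lower (0.0238%) was the stress chaperone gene Hspa1b. With the cells outside the CD8 gate left out of both subclusters, Dapl1 (1.94) and Satb1 (1.26) still passed and Hspa1b (−1.996) did not. Satb1 lost its call with thinned cells (1.09) and with cells carrying UMIs of Cd79a, Lyz2 or C1qa left out (1.21). Without mouse 2 the count was 6 and without mouse 3 it was 14. With a minimum difference of 0.5, added after the data were seen, the count was 22 (0.523%). The 19 higher genes (0.452%) included 11 of the 13 mitochondrial genes and Dapl1, Satb1, Ccr7, Tcf7, Ikzf2, Sytl1 and Cmah, and the 3 lower genes (0.0714%) were Hspa1b, Trat1 and Hist1h4d.

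Satb1, a chromatin organiser of T cells at chr17:51736187-51833290 (mm10) on the minus strand, stood at 187, 114 and 59.5 CPM in subcluster 7 and 70.8, 49.9 and 25.7 CPM in subcluster 1 (1.25 ± 0.12). The subclusters kept this order within each mouse, though mouse 3 of subcluster 7 was below mouse 1 of subcluster 1. Subcluster 10 had 312, 340.2 and 344 CPM of it.

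Dapl1, at chr2:59484653-59505020 on the plus strand, stood at 175, 177 and 28.3 CPM in subcluster 7 and 74.2, 34.7 and 3.78 CPM in subcluster 1 (2.05 ± 0.73). It rested on few cells: 28 cells carried its 250 UMIs in subcluster 7, and 1 of them held 63. Tcf7, whose product TCF1 maintains naive and memory T cells, stood at 209.9, 219 and 94.8 CPM in subcluster 7 and 96.1, 139 and 52.6 CPM in subcluster 1 (0.87 ± 0.23). The homing receptor gene Ccr7 stood at 56.4, 28.5 and 19.98 CPM in subcluster 7, against 27.0, 16.0 and 11.2 CPM in subcluster 1 (0.87 ± 0.14). Both were higher in every mouse, by less than the rule of 1. Ikzf2, which encodes the transcription factor Helios, had 99.1, 53.5 and 22.8 CPM in subcluster 7 and 57.3, 25.8 and 13.4 CPM in subcluster 1.

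Of a list of 16 genes of naive and memory T cells, 11 were higher in subcluster 7 than in subcluster 1 in 3 of 3 mice, where 12.4% of all genes were. The median log2 difference of the list was 0.44 against −0.04 over all genes. Of its 15 genes that reached 30 CPM, 2 passed the fold rule as higher (Dapl1 and Satb1), as 0.0714% of all genes did. The list was chosen with earlier results of these data known, so its counts describe the genes and carry no test. Among the others, Lef1 stood at 107, 83.8 and 93.9 CPM in subcluster 7 and 62.4, 74.8 and 77.6 CPM in subcluster 1. The survival receptor gene Il7r stood at 422, 289 and 102 CPM in subcluster 7, against 283, 262 and 43.5 CPM in subcluster 1. The genes of recirculation and egress from tissue, of which 10 of 11 reached 10 CPM, also had a median of 0.44, among them S1pr1, the exit receptor for sphingosine phosphate, with 83.6, 62.4 and 65.1 CPM in subcluster 7 and 69.1, 47.2 and 35.4 CPM in subcluster 1.

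Effector genes had the opposite sign, and none of the cytotoxicity list passed the fold rule. Of 17 cytotoxicity genes, 16 reached 10 CPM and had a median of −0.36 against subcluster 1, and 7 were lower in 3 of 3 mice, where 18.1% of all genes were. Gzmb, which encodes the killer protease granzyme B, stood at 227, 162 and 658 CPM in subcluster 7 and 725, 241 and 887 CPM in subcluster 1 (−0.89 ± 0.68). Gzmk stood at 71.9, 71.3 and 204 CPM in subcluster 7, against 91.0, 127 and 245 CPM in subcluster 1 (−0.47 ± 0.30). The chemokine gene Ccl5 stood at 4288, 7635 and 17732 CPM in subcluster 7 and 7928, 10515 and 18691 CPM in subcluster 1 (−0.47 ± 0.41). These genes were lower in every mouse, but the spread between mice was far larger than the difference between the subclusters. Cxcr6, a receptor of tissue-homing T cells, stood at 459, 357 and 459 CPM in subcluster 7 and 600.0, 462 and 590.0 CPM in subcluster 1 (−0.37 ± 0.01).

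Hspa1b, an inducible HSP70 gene at chr17:34956436-34959238 on the minus strand, stood at 21.4, 62.4 and 28.8 CPM in subcluster 7 and 106, 347 and 111 CPM in subcluster 1 (−2.21 ± 0.28). One cell of subcluster 1 held 343 of its 1039 UMIs there, and 74 cells held them all. With cells that carried 2 or more UMIs of C1qa, Cd79a or Lyz2 left out of both subclusters, its difference was −0.12 and the call was lost. Reads of Hspa1b and its neighbour Hspa1a, a nearly identical copy, may have been split between them, so the values of either gene are uncertain.

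**Figure D2:**
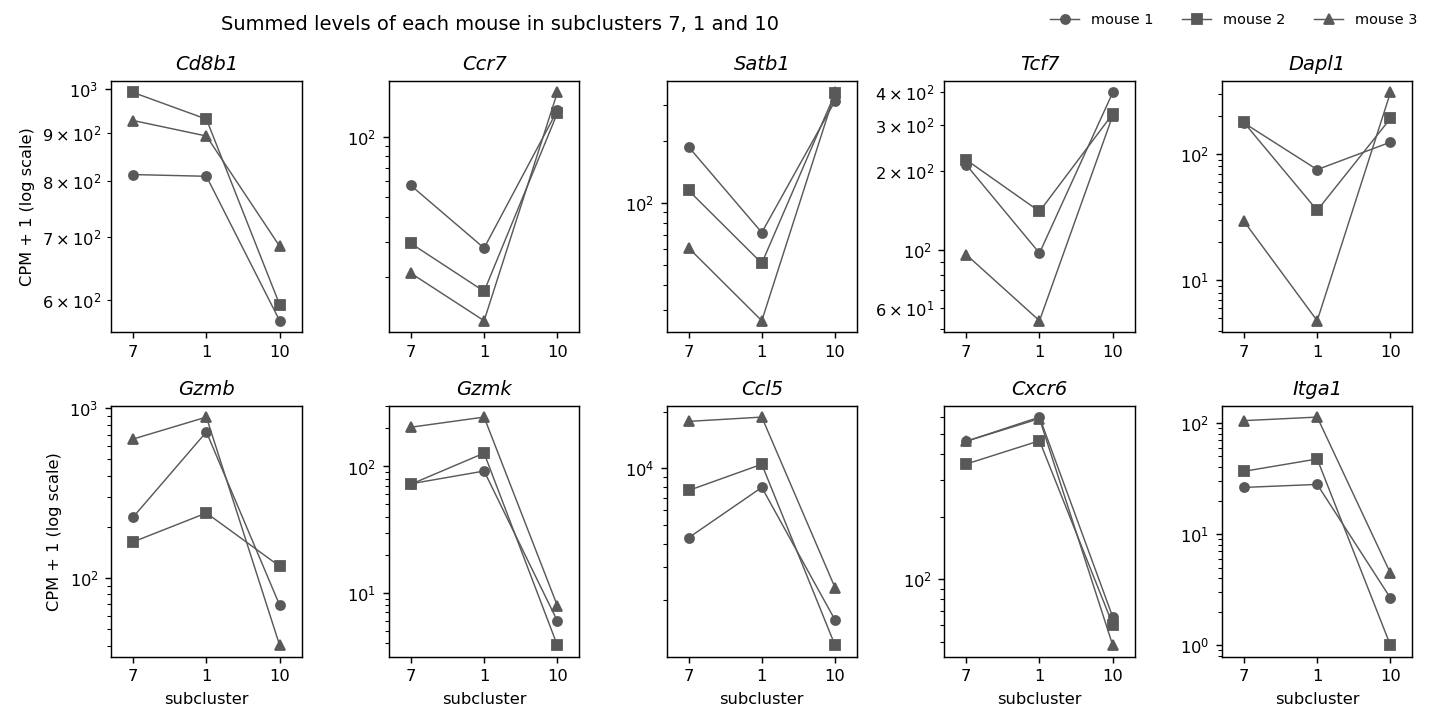
CPM plus 1 of named genes in subclusters 7, 1 and 10 for each of the 3 mice on a log axis; each line joins the values of a mouse. Ccr7 has 56.4, 28.5 and 19.98 CPM in subcluster 7, 27.0, 16.0 and 11.2 CPM in subcluster 1 and 135, 130.4 and 166 CPM in subcluster 10, while Gzmk runs the opposite way.

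The same order appeared in single cells thinned to 7537 UMIs each, which kept 241 of 351 cells of subcluster 7, 553 of 785 of subcluster 1 and 125 of 129 of subcluster 10. Tcf7 had a UMI in 44.8% of cells of subcluster 7, 24.1% of subcluster 1 and 86.4% of subcluster 10, against 0.693% in the Siglech-named cluster, which served as a level for free RNA. Cxcr6 was found in 78.0% of subcluster 7, 89.5% of subcluster 1, 28.8% of subcluster 10 and 2.23% of the Siglech-named cluster. Gzmk was found in 50.6%, 70.9%, 3.2% and 0.847% of the same classes.

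Within subcluster 7, effector transcripts were counted separately in cells with and without Tcf7. Of the 108 thinned cells with Tcf7, 32 (29.6%) had Gzmk, against 90 of 133 (67.7%) without Tcf7. Gzmb was found in 26 of the 108 (24.1%) and in 100 of the 133 (75.2%), and Cxcr6 in 65 (60.2%) and 123 (92.5%). Subcluster 1 had the same order, with Gzmk in 48.9% of cells with Tcf7 and 77.9% of cells without. There Gzmb was found in 39.8% and 79.0%, and Cxcr6 in 71.4% and 95.2%. In subcluster 10, with only 17 cells without Tcf7, Gzmb had the opposite order (15.7% and 5.88%). All these counts pool the mice, whose levels of the genes differ, and carry no test.

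Some of the genes that differed from subcluster 1 also differed with the mitochondrial share within subcluster 7. In 80 of its cells at least 3.5% of UMIs were mitochondrial, 24, 14 and 42 by mouse, an edge chosen after the data were seen. The CD8 gate held 16 of 24, 14 of 14 and 40 of 42 of them, and 19 of 24, 42 of 44 and 199 of 203 of the other cells. The mouse 1 values on both sides therefore include cells outside the gate. Ccr7 stood at 105, 83.6 and 56.2 CPM in the 80 cells, against 4.02, 7.40 and 11.9 CPM in the other 271. Tcf7 stood at 256, 335 and 222 CPM above the edge, against 161, 175 and 66.5 CPM below it. Each of these genes was higher above the edge in every mouse. Satb1 had 214, 225 and 176 CPM above the edge and 157, 71.5 and 33.5 CPM below it. Il7r had no such order, with 391, 270.2 and 217 CPM above the edge and 455, 296 and 76.7 CPM below it. Ikzf2 was higher above the edge in mice 1 and 3 and lower in mouse 2, at 38.6 CPM above and 59.2 CPM below.

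The effector genes had the opposite order. S100a4, a calcium-binding protein of activated T cells, stood at 421, 347 and 363 CPM above the edge and 1042, 777 and 709 CPM below it. Gzmk stood at 22.6, 38.6 and 110 CPM above the edge, against 125, 83.9 and 224 CPM below it. By cell, Tcf7 was detected in 62.5%, 71.4% and 66.7% of the cells above the edge and in 70.8%, 70.5% and 26.6% of those below it, at median depths of 9738 and 8655 UMIs over all mice. The share of cells with Tcf7 was thus higher above the edge in mouse 3 and lower or about the same in the other mice, although its CPM was higher in every mouse. With the 80 cells left out, Hspa1b alone passed the fold rule against subcluster 1. The difference of Dapl1 was then 0.21, that of Satb1 0.67 and that of Tcf7 0.47, while Ccr7 and Ikzf2 turned to −1.14 and −0.37.

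**Figure D3:**
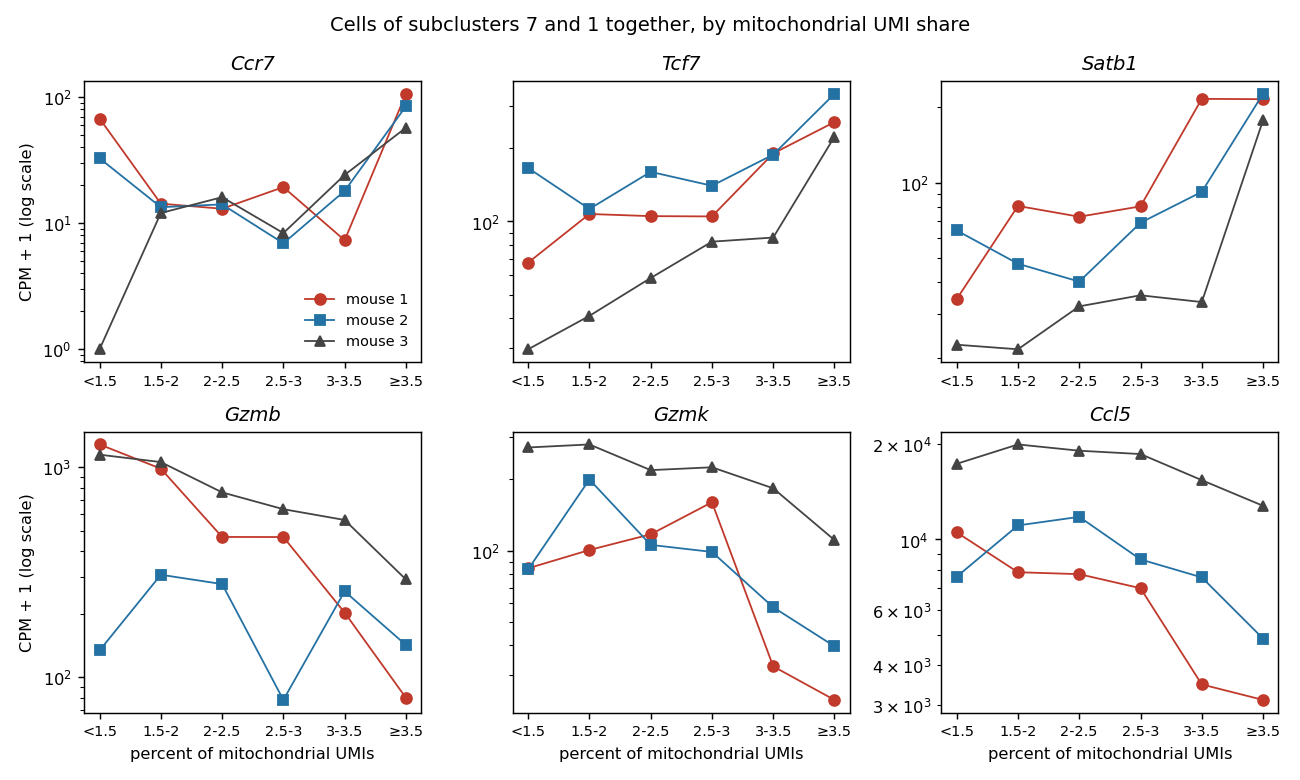
CPM plus 1 (log axis) of named genes in the cells of subclusters 7 and 1 together, in bands of the mitochondrial share of UMIs, one line for each mouse. Tcf7 in the highest band has 256, 335 and 222 CPM, above every lower band of the same mouse, and Gzmb in mouse 3 has 291 CPM there against 1147 CPM in the lowest band, while mouse 2 has 142 CPM in the highest and 133 CPM in the lowest.

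Over the cells of both subclusters together, split into 6 bands of the mitochondrial share with 124, 295, 328, 207, 102 and 80 cells, Tcf7 was highest in the top band of each mouse. In mouse 3 the bands held 28.8, 39.9, 57.5, 81.6, 84.9 and 222 CPM from the lowest share to the highest. Mouse 1 had 66.7 CPM in the lowest band, 104 CPM in the fourth, 189.6 CPM in the fifth and 256 CPM in the highest, and mouse 2 had no steady order below the highest band, at 335 CPM. All 80 cells of the highest band and all 102 of the band beneath it belonged to subcluster 7. Share and subcluster therefore cannot be told apart there. Only mouse 3 had enough cells for a match on the share, with 41 cells from each subcluster at a median of 2.53%. These were the low end of subcluster 7 and the high end of subcluster 1. Tcf7 had 9 UMIs in the matched cells of subcluster 7 and 45 in those of subcluster 1, and Gzmb had 421 and 151, both opposite in direction to all cells of mouse 3.

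A test inside subcluster 7 set the cells with the higher mitochondrial share against those with the lower share, split within quintiles of total UMIs in each mouse. This comparison was added after the data were seen. It used 171 cells a side (23, 28 and 120 by mouse), with median shares of 3.97%, 3.48% and 3.35% on the higher side and 3.04%, 2.82% and 2.71% on the lower side. The quasi-likelihood test of edgeR had the mouse as a block and Benjamini-Hochberg adjustment over all fitted genes. These included the 13 mitochondrially encoded genes, which follow the split by its construction. Of the 3403 genes outside the mitochondrial genome, 24 passed an adjusted p of 0.05 (0.705%). In the cells with the higher share 16 of them were higher (0.47%) and 8 lower (0.235%). A fit without the mitochondrial genes called 15, of which 10 were higher and 5 lower. With no term for the mouse, edgeR called 0 and 120 had an unadjusted p under 0.05, against 269 with the block. Without mouse 1 the count was 13.

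The 8 genes that fell with the higher share included effector genes. Gzmb stood at 80.8, 85.2 and 404 CPM on the higher side, against 393, 250 and 906 CPM on the lower side, a log2 change of −1.39 ± 0.15 (SE, adjusted p 6.63e-07, edgeR). Gzmk stood at 24.2, 37.0 and 161 CPM on the higher side and 126, 99.1 and 237 CPM on the lower side (−0.84, adjusted p 0.0281, edgeR). Both were lower in 3 of 3 mice. Ccl5 fell by 0.47 on the log2 scale, S100a4 by 0.65, the death ligand gene Fasl by 1.08 and Id2, a factor of effector differentiation, by 0.48. In alternative fits Ccl5 and S100a4 each passed in 6 of 8, Fasl in 3 of 7 and Id2 in 2 of 8.

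The 16 genes that rose included Tcf7, Satb1 and immediate early genes. Tcf7 stood at 246, 259 and 137 CPM on the higher side and 187, 184 and 55.0 CPM on the lower side (log2 change 0.84, adjusted p 0.0071, edgeR). Satb1 stood at 230, 148 and 84.8 CPM on the higher side, against 154, 80.8 and 35.7 CPM on the lower side (0.96, adjusted p 0.00666, edgeR). Both were higher in 3 of 3 mice. Klf2, which drives expression of S1pr1, rose by 0.74. Ikzf2 rose by 1.97, most of all in mouse 1. It stood at 182, 66.7 and 33.6 CPM on the higher side and 12.2, 44.1 and 9.65 CPM on the lower side. Cells outside the CD8 gate, most frequent in mouse 1, were kept in this test. The immediate early genes Jun and Fosb rose by 0.94 and 1.03. Dapl1 rose by 1.78 with 2 of 3 mice higher. Of 8 alternative fits, Gzmb passed in 7, while Tcf7, Satb1, Gzmk and Dapl1 each passed in 4. DESeq2, one of the 8, gave no adjusted p for Satb1, Gzmk and Dapl1.

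**Figure D4:**
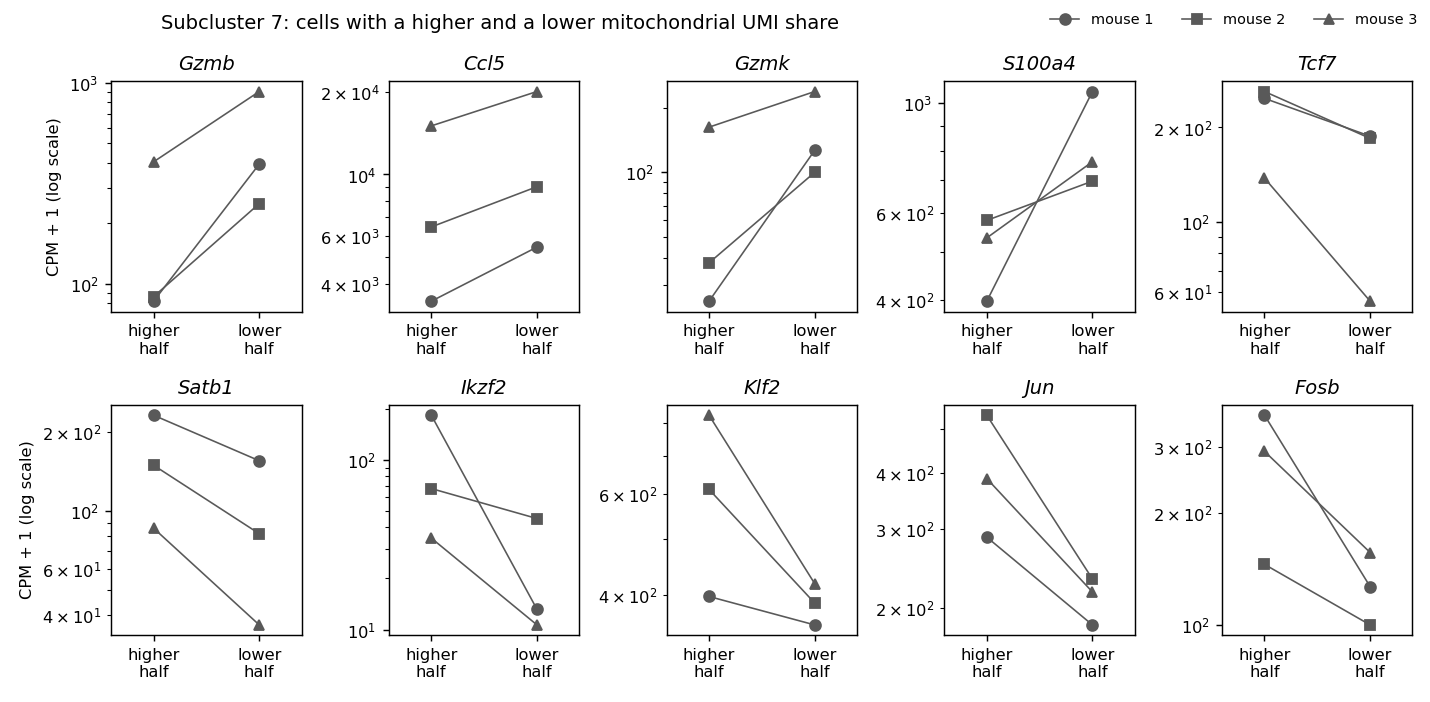
CPM plus 1 (log axis) of named genes in cells of subcluster 7 with the higher mitochondrial share, at left, and the lower share, at right, one line for each mouse. Gzmb is lower on the higher side in all 3 mice, at 80.8, 85.2 and 404 CPM against 393, 250 and 906 CPM, and Tcf7 and Satb1 are higher there.

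The same split was made in the other CD8 subclusters. In subcluster 1, with 387 cells a side, all 24 genes were fitted, 18 had the same direction and 2 passed, Gzmb at −1.03 (adjusted p 0.000102, edgeR) and Tcf7 at 0.67 (adjusted p 0.0299, edgeR). In that subcluster 24 of 5559 genes passed in all (0.432%), among them Cd74, the invariant chain of class II MHC, which fell by 1.56 there and was among the 16 that rose in subcluster 7. In subcluster 10, with 61 cells a side, 8 of 3214 genes passed (0.249%), and of the 22 that were fitted 15 had the same direction and Dapl1 passed at 1.04 (adjusted p 0.0134, edgeR). DESeq2 called 0 in subclusters 1 and 10, with 38 and 13 genes at an unadjusted p under 0.05. Without mouse 1 edgeR called 0 in subcluster 10, with 137 at an unadjusted p under 0.05. Some of the 18 changes were very small, such as S100a4 at −0.007. How many of all fitted genes kept their direction was not counted, so the 18 and 15 have no background beside them. The difference between the subclusters in these changes was not tested.

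Against subcluster 10 more genes stood out than against subcluster 1, and most of them were higher in subcluster 7. By the fold rule 75 of 4124 genes differed (1.82%), 66 higher in subcluster 7 (1.6%) and 9 lower (0.218%), and leaving out mouse 1, 2 or 3 gave 147, 159 and 124. The median difference over all genes was 0.24, and totals without ribosomal protein genes moved it to −0.02 and the split to 47 higher and 43 lower. The ribosomal share of UMIs had medians of 31.1%, 28.6% and 26.0% in subcluster 7, against 40.5%, 39.0% and 40.4% in subcluster 10, and 77 of 81 ribosomal protein genes were lower in subcluster 7 in 3 of 3 mice. Of all genes 9.42% were lower and 38.1% higher in 3 of 3 mice. Cells of subcluster 10 were also deeper, with medians of 12858, 14593 and 11751 UMIs.

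The homing and adhesion genes held several of the differences. Itga1, an integrin that binds collagen, stood at 25.3, 35.7 and 104 CPM in subcluster 7, against 1.66, 0 and 3.45 CPM in subcluster 10 (4.35 ± 0.96), where only 4 UMIs were found in all. Cxcr6 stood at 459, 357 and 459 CPM in subcluster 7 and 64.8, 59.5 and 47.1 CPM in subcluster 10 (2.87 ± 0.35). The inflammatory chemokine receptor genes Ccr2 and Cxcr3 differed by 2.65 ± 1.00 and 1.24 ± 0.16. Of a list of 13 genes, made of chemokine receptors and S1pr1, 7 reached 30 CPM. Of these, 4 were higher, as 1.6% of all genes were, and 1 was lower, as 0.218% were. This was Ccr7, with 56.4, 28.5 and 19.98 CPM in subcluster 7 and 135, 130.4 and 166 CPM in subcluster 10 (−2.13 ± 0.87).

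Killing and chemokine genes followed. Gzmk stood at 71.9, 71.3 and 204 CPM in subcluster 7, against 4.98, 2.84 and 6.90 CPM in subcluster 10 (4.18 ± 0.55). Ccl5 stood at 4288, 7635 and 17732 CPM in subcluster 7 and 1572, 1154 and 2331 CPM in subcluster 10 (2.37 ± 0.80), and Ccl3 and Ccl4 differed by 2.53 and 2.39. For all 4 genes, which were chosen with earlier results of these data known, the mice of subcluster 7 lay above those of subcluster 10. Of all genes 38.1% were higher in 3 of 3 mice. Gzmb was variable, at 227, 162 and 658 CPM in subcluster 7 and 68.1, 116 and 39.1 CPM in subcluster 10. S100a4 stood at 721, 658 and 646 CPM in subcluster 7, against 81.4, 102 and 50.6 CPM in subcluster 10 (3.15 ± 0.49), and Id2 at 653, 431 and 578 CPM against 125, 128 and 117 CPM (2.14 ± 0.34).

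Of 16 checkpoint genes measured, 10 reached the 10 CPM needed for a median against subcluster 10, which was 1.24 where all genes had 0.24. Against subcluster 1 it was −0.12 over 13. Pdcd1, which encodes PD-1, stood at 109, 90.9 and 81.3 CPM in subcluster 7, at 129.8, 92.7 and 85.7 CPM in subcluster 1 and at 31.6, 59.5 and 5.75 CPM in subcluster 10. Havcr2, which encodes TIM-3, was at 29.2, 0 and 1.86 CPM in subcluster 7. Of the 23 interferon response genes, 20 reached 30 CPM and 5 passed as higher than in subcluster 10, as 1.6% of all genes did. The list had a median of 0.63 against 0.24 over all genes. Genes lower in subcluster 7 than in subcluster 10 included the sodium pump subunit Atp1b1 (−2.93 ± 0.48), the transcription factor Myb (−1.88 ± 1.08) and Impdh2, an enzyme of guanine nucleotide synthesis (−1.53 ± 0.18).

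**Figure D5:**
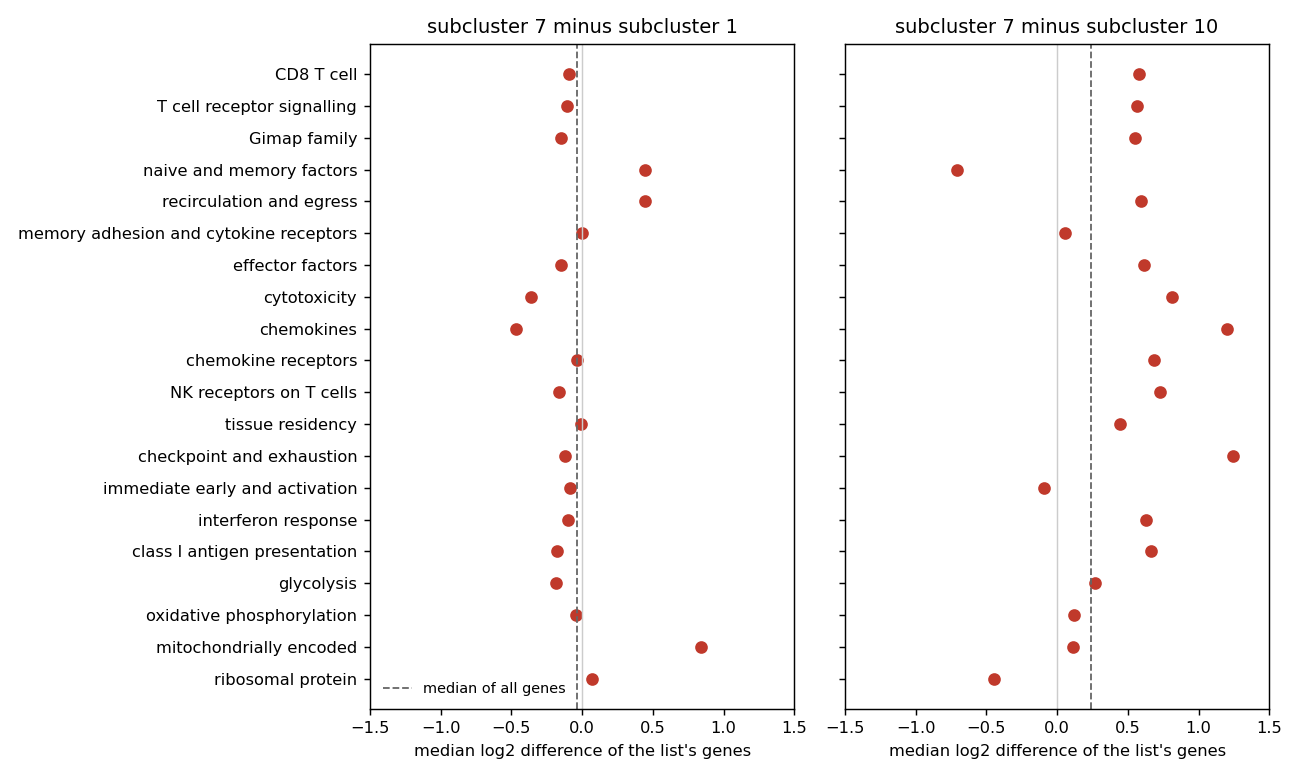
Median log2 difference in CPM of named gene lists in subcluster 7 against subcluster 1 and against subcluster 10. Mitochondrially encoded genes stand at 0.84 against subcluster 1, and naive and memory factors stand at 0.44 against subcluster 1 and −0.71 against subcluster 10.

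For genes that separate subclusters 10 and 1, subcluster 7 was nearer to subcluster 1. Of 4187 genes, 25 were higher in subcluster 10 than in subcluster 1 by the fold rule (0.597%), and for 15 of them subcluster 7 lay between in every mouse. On a scale where subcluster 1 is 0 and subcluster 10 is 1, their median position was 0.29, and by mouse 0.51, 0.35 and 0.29. The genes were picked from the same sums of subclusters 1 and 10 that set the scale, so positions and counts between carry no test. Tcf7 and Satb1 stood at 0.44, Ikzf2 at 0.38 and Ccr7 at 0.29. Of the 103 genes lower in subcluster 10 (2.46%), 47 were between in every mouse and the median position was 0.15. Cxcr6 stood at 0.11 and Itga1 at 0.04. The cells with at least 3.5% mitochondrial UMIs stood at 0.71, 0.46 and 0.61 for the 25 genes, against 0.08, 0.20 and 0.10 for the remaining cells of subcluster 7. In mouse 1 only 16 of the 24 cells with the higher share were in the CD8 gate.

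Against all other cells, which include dendritic cells, macrophages and other lymphocytes, 701 of 4748 genes passed the fold rule (14.8%), 174 higher (3.66%) and 527 lower (11.1%). Of the 18 genes of CD8 T cells 16 were higher, of the 16 of T cell receptor signalling 9, and of the 8 Gimap GTPases of lymphocytes 7. S1pr1 stood at 83.6, 62.4 and 65.1 CPM in subcluster 7, against 7.07, 10.3 and 16.3 CPM in all other cells (2.60 ± 0.74). Actn2, a muscle actinin, stood at 42.8, 33.9 and 45.1 CPM in subcluster 7 and 2.15, 4.01 and 11.2 CPM in all other cells (2.84 ± 0.94), and it was at a like level in subcluster 1. Bcl11b, a T lineage factor, stood 2.34 higher. Mki67, a marker of cycling cells, stood at 11.7, 10.7 and 16.3 CPM in subcluster 7, against 92.0, 71.3 and 66.7 CPM in all other cells (−2.49 ± 0.47).

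Markers of other cell types were mostly at lower levels than in all other cells, with exceptions. Summed over their lists, plasmacytoid dendritic cell genes reached 363 to 537 CPM in subcluster 7 and 3452 to 4635 CPM in all other cells, and macrophage and monocyte genes 122 to 151 CPM and 3008 to 5011 CPM. The B cell list summed to 159, 198 and 249 CPM in subcluster 7, against 286, 232 and 308 CPM in all other cells. The stromal and tumour list summed to 42.8, 37.4 and 30.2 CPM in subcluster 7 and 48.3, 40.4 and 49.5 CPM in all other cells. The CD4 T cell list was higher in mouse 1, at 472 CPM in subcluster 7 and 272 CPM in all other cells. Of the cells of subcluster 7, 73 of 351 carried 2 or more UMIs of C1qa, Cd79a or Lyz2, the limit for leaving cells out, against 136 of 785 in subcluster 1 and 37 of 129 in subcluster 10. Siglech stood at 7.77, 10.7 and 6.97 CPM in subcluster 7 and C1qa at 1.94, 3.57 and 3.25 CPM. Of the γδ T cell list, 3 of 9 genes were at 0, while the list summed to 130.2 CPM in mouse 1, 26.7 CPM in mouse 2 and 23.2 CPM in mouse 3. The neutrophil genes came from 1 cell of mouse 3, which held 346 of 352 UMIs of S100a8 and 523 of 530 of S100a9. One cell likewise held 44 of 45 UMIs of Cd79a, a B cell receptor chain.

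The mice differed within subcluster 7. Of 3936 genes, 204 (5.18%) had a range over the mice of at least 1 on the log2 scale. Ccl5 was 2.05 higher in mouse 3 than in mouse 1 and Itga1 1.99 higher, while Il7r was 2.03 lower, Satb1 1.63 lower and Tnfrsf9, which encodes the costimulatory receptor 4-1BB, 2.52 lower. In subcluster 1 the same mice differed by 1.24 for Ccl5, 2.01 for Itga1 and −2.67 for Il7r. The share of cells above 3.5% mitochondrial UMIs was 24 of 48 in mouse 1, 24.1% in mouse 2 and 17.1% in mouse 3. With 1 animal behind each value, nothing could be tested.

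Jaml itself, the gene of the sorted protein, lies on the plus strand at chr9:45079183-45108534. It stood at 218, 235 and 210.0 CPM in subcluster 7, at 182, 224 and 222 CPM in subcluster 1, at 159.5, 167 and 93.1 CPM in subcluster 10 and at 243, 210.4 and 245 CPM in all other cells. Subcluster 7 was above subcluster 10 in every mouse (0.70 ± 0.40) and did not differ from subcluster 1 beyond the spread between mice (0.08 ± 0.17). At least 1 Jaml UMI was found in 72.4% of its cells (exact interval 67.4 to 77.0), against 71.7% in subcluster 1 and 62.0% in subcluster 10. By mouse the shares were 75%, 72.4% and 71.8% in subcluster 7, 60.9%, 70.2% and 73.2% in subcluster 1 and 75.6%, 72.7% and 50% in subcluster 10, so the lower share of subcluster 10 came from mouse 3. Cxadr, the gene of its ligand, had 0, 0 and 0.465 CPM in subcluster 7.

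Cells of subcluster 7 with a Jaml UMI were tested against those with none, in equal numbers within quintiles of total UMIs, 97 cells a side and 12, 16 and 69 by mouse. With edgeR's quasi-likelihood test and the mouse as a block, 9 of 2082 genes passed an adjusted p of 0.05 (0.432%), 2 of them higher (0.0961%) and 7 lower (0.336%) in the cells with Jaml. S100a4 stood at 976, 1009 and 717 CPM in cells with Jaml, against 719.7, 339 and 559 CPM in cells without (log2 change 0.65, adjusted p 0.00859, edgeR), and the interferon gene Isg15 rose by 1.02. Lef1 stood at 69.7, 74.0 and 52.0 CPM in cells with Jaml and 186, 115 and 125 CPM in cells without (−1.20, adjusted p 0.00762, edgeR), and Satb1 fell by 1.28. The median mitochondrial share was 3.48%, 2.92% and 2.80% in cells with Jaml and 3.87%, 3.18% and 3.00% in cells without, and its part in these changes was not tested. DESeq2 called 0 genes, with 19 at an unadjusted p under 0.05, against 138 with edgeR, and leaving out mouse 1, 2 or 3 gave counts of 18, 1 and 6. Another matching draw gave 3. Of 10 alternative fits, Isg15 passed in 5, S100a4 in 4, Lef1 in 2 and Satb1 in 1.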

How the data were processed

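UMI counts per gene and cell and an annotation of 5976 cells were deposited by the authors. Cell Ranger 3.1.0, Seurat 3.1.5 and mm10 are named in the submitters' processing notes, and the filters and doublet handling behind the deposited counts are not given in the sources used here. The mitochondrial and ribosomal percent of UMIs per cell is the authors' deposited value, and it ran from 0 to 5 for the mitochondrial one. Counts were summed per mouse and class, divided by the total and compared as log2 of CPM plus 1. Cells without a hashtag (8 in all) were left out of sums. Classes made by clustering got no p-values. Within subcluster 7, edgeR 4.0.16 in R 4.3.3 was used with TMM scaling, filterByExpr and the mouse as a block, since both sides came from the same animals, with DESeq2 1.42.0 as an alternative. The fold rule and the edgeR fit were tried on simulated counts that held no differences between mice, and DESeq2 was not. Genes named were the 12 of largest difference in each direction past the fold rule, the leading members of each list and a fixed set. The members and lists were chosen with earlier results of these data known. All cells were in 1 library. With the mouse as a block, p-values rest on how the differences within a mouse vary over 3 mice. edgeR and DESeq2 estimate that variation partly from other genes, so a p-value does not measure a gene's spread over 3 mice alone. Exact intervals cover counting error only. Gene positions are from GENCODE's mm10 annotation. Some genes that passed a rule or test are not reported here.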

Additional observations from a re-analysis of the deposited data

How the results depend on the processing

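Counts by the fold rule depended most on its limits. Against all other cells 701 genes passed, and 1179, 303 and 1415 passed with a minimum of 10 CPM, a minimum of 100 CPM and a log2 difference of 0.5. Against subcluster 10 the 75 genes became 157, 27 and 459 under the same limits, and 124 to 159 when 1 mouse was left out. TMM and RLE scaling gave 56 and 55, of which 69.6% and 67.3% were higher in subcluster 7, against 88.0% in the main count, and totals without ribosomal protein genes gave 52.2%. Against subcluster 1 the 4 genes became 10 with a minimum of 10 CPM, 22 with a log2 difference of 0.5, 2 with thinned cells, 2 with cells carrying Cd79a, Lyz2 or C1qa UMIs left out (Dapl1 passed in both and Satb1 in neither), 4 to 14 with 1 mouse left out, and 1 without the cells of at least 3.5% mitochondrial UMIs, where Ccr7 (−1.14) and Ikzf2 (−0.37) turned round. The cause was not tested, except that a smaller limit admits more genes by its construction.

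Inside subcluster 7 the 24 genes of the mitochondrial split became 12 with DESeq2, 57 with no filter, 15 with totals without mitochondrial genes and 13 to 32 with 1 mouse left out, the lowest without mouse 1. The 9 genes of the Jaml comparison became 0 with DESeq2, 4 with no filter, 2 with all cells unmatched, 3 with another matching draw, 5 with at least 2 Jaml UMIs, and 1 to 18 with 1 mouse left out. With no replicate block, so that the pairing of both sides by mouse was ignored, 0 genes passed in either comparison, with 120 and 66 at an unadjusted p under 0.05. Depth limits the rarer genes: Ccr7 rests on 88 UMIs in subcluster 7.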

Other observations

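Of 11 NK receptor genes that T cells can carry, 9 reached 10 CPM, with a median log2 difference of 0.72 from subcluster 10, against 0.24 over all genes. The fold rule called 3 as higher, as it did 1.6% of all genes, and 4 were higher in 3 of 3 mice, where 38.1% of all genes were. Klrk1, which encodes the activating receptor NKG2D, stood at 356, 137 and 178 CPM in subcluster 7 and 146, 31.2 and 52.9 CPM in subcluster 10. Lag3, a checkpoint receptor gene, stood at 148, 96.3 and 82.7 CPM in subcluster 7, against 46.5, 48.2 and 21.8 CPM in subcluster 10. Tox, a factor of persistently stimulated T cells, stood at 119, 94.5 and 147 CPM in subcluster 7 and 36.6, 48.2 and 27.6 CPM in subcluster 10. In all 3 genes each mouse was higher in subcluster 7. The integrin gene Itgae, which encodes CD103, was low in subcluster 7, at 19.4, 24.96 and 5.11 CPM, against 40.1, 41.2 and 47.0 CPM in all other cells.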
